A study of Bos indicus with 6 samples.

Results

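The genes described here were components and membrane regulators of the complement system, an innate immune cascade of soluble proteins that mark, clear or lyse targets. They were chosen by symbol, with the rule naming 10 genes, of which 9 had a row among the 24616 genes of the deposited table: the C1q chains C1QA, C1QB and C1QC, the C1 proteases C1R and C1S, the central component C3, the alternative pathway genes CFB and CFD, and the membrane regulator CD55. No row carried the symbol CD46, so this gene was not analysed here. The data were RNA-seq profiles of the oviductal isthmus of 6 multiparous, non-lactating Nelore (Bos indicus) cows, 3 of the LF/LCL group (large follicle and large corpus luteum, cows 617, 79 and 527) and 3 of the SF/SCL group (small follicle and small corpus luteum, cows 856, 489215 and 97). All cows were pre-synchronized with prostaglandin F2α and GnRH, and all received a progesterone device with estradiol benzoate, prostaglandin F2α at and after device removal, and a GnRH agonist to induce ovulation, and the oviduct on the side of the corpus luteum was taken on day 4. The LF/LCL cows were given an additional prostaglandin F2α injection at device insertion and lost the device 42 h before GnRH, whereas SF/SCL cows lost it 30 h before GnRH. The cows sequenced were the top-ranked LF/LCL and the bottom-ranked SF/SCL animals of a larger experiment, ranked on follicle, estradiol, corpus luteum and progesterone measurements, and each gave a single library of full-thickness tissue.

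In the classical pathway, C1q binds antibody or surfaces and its partner proteases C1r and C1s become active, and C1 inhibitor (SERPING1) holds them in check. All pathways meet at C3, whose cleavage labels surfaces, and the alternative pathway amplifies this step with factor B (CFB), cut by factor D (CFD), while CD55 and CD46 on host membranes break the reaction off. The liver makes most circulating complement, macrophages are the main source of C1q, and stromal and epithelial cells of many tissues make C1r, C1s, C3 and factor B locally. In the oviduct, C3 is a secreted product that reaches the lumen, where sperm and the early embryo are exposed to it.

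The values are normalized counts, that is reads per gene divided by a size factor of the library. From 23899117 to 34193164 reads were assigned to genes per library, and the members rested on 166 to 18762 reads per library and gene. Differences were tested with limma, with Benjamini-Hochberg adjustment, on log2(normalized count + 1) of the 15387 genes whose mean over the 6 libraries exceeded both 5 and their SD. The log2 fold changes compare SF/SCL with LF/LCL, negative values being higher in LF/LCL, and SE is the standard error of the fit. Cow 489215 stood apart from the others: within groups, genes had a median SD of 0.435 on the log2 scale with it and of 0.183 without it, and values without it are given beside those of the members. Its summed smooth muscle markers were 1265710 normalized counts, against 356885 and 424740 in the other SF/SCL cows and 784979 to 904542 in LF/LCL. Markers of muscle, fibroblasts and epithelium, the layers of the oviduct wall, were detected in every library. Of the epithelial genes listed, PIFO was at 0 in all 6 libraries and CDH1 had no row. In such bulk tissue, fewer cells of a type and less RNA per cell cannot be told apart.

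Across the 9 genes, CFB, C1R and C1S were higher in every LF/LCL cow than in any SF/SCL cow, and CD55 was higher in every SF/SCL cow. The C1q chains, C3 and CFD overlapped between the groups. For 4 of the 9 genes no value of one group fell into the range of the other, as for 18.1% of all genes tested, with LF/LCL on top for 3 (8.60% of all genes) and SF/SCL for 1 (9.51%). After adjustment limma called 0 of the 9 genes at 0.05, as it called 0% of all genes, and the quasi-likelihood test of edgeR on the recovered reads also called 0. Before adjustment 4 of the 9 had a limma p-value under 0.05, against 8.66% of all genes tested. These were CFB, C1R and C1S on the LF/LCL side (3 genes, background 4.48%) and CD55 on the SF/SCL side (1 gene, background 4.19%). With edgeR 3 of the 9 had an unadjusted p-value under 0.05, against 8.49% of all genes. Without cow 489215 limma called 4 of the 9 genes after adjustment, where it called 18.2% of all genes. CFB, C1R and C1S were then called on the LF/LCL side (background 7.92%) and CFD on the SF/SCL side (background 10.3%). The Wald test of DESeq2 on all 6 cows called CFB and C1S, 2 of the 9 and both on the LF/LCL side, where it called 2.76% of the genes it tested and 1.38% on that side. Of the 9 log2 fold changes, 4 were below 0 and 5 above 0, the latter including the 3 C1q chains. Their median was 0.29, the value of C1QA, against -0.02 over all genes tested. Without cow 489215 the median was 0.56, again the value of C1QA, against -0.0015 over these genes. C1S also stands among the genes that the study selected on these same libraries, so its direction is not independent of that choice. CFB is not named in the main text of the study, and whether it stands on the full list was not checked.

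**Figure D1:**
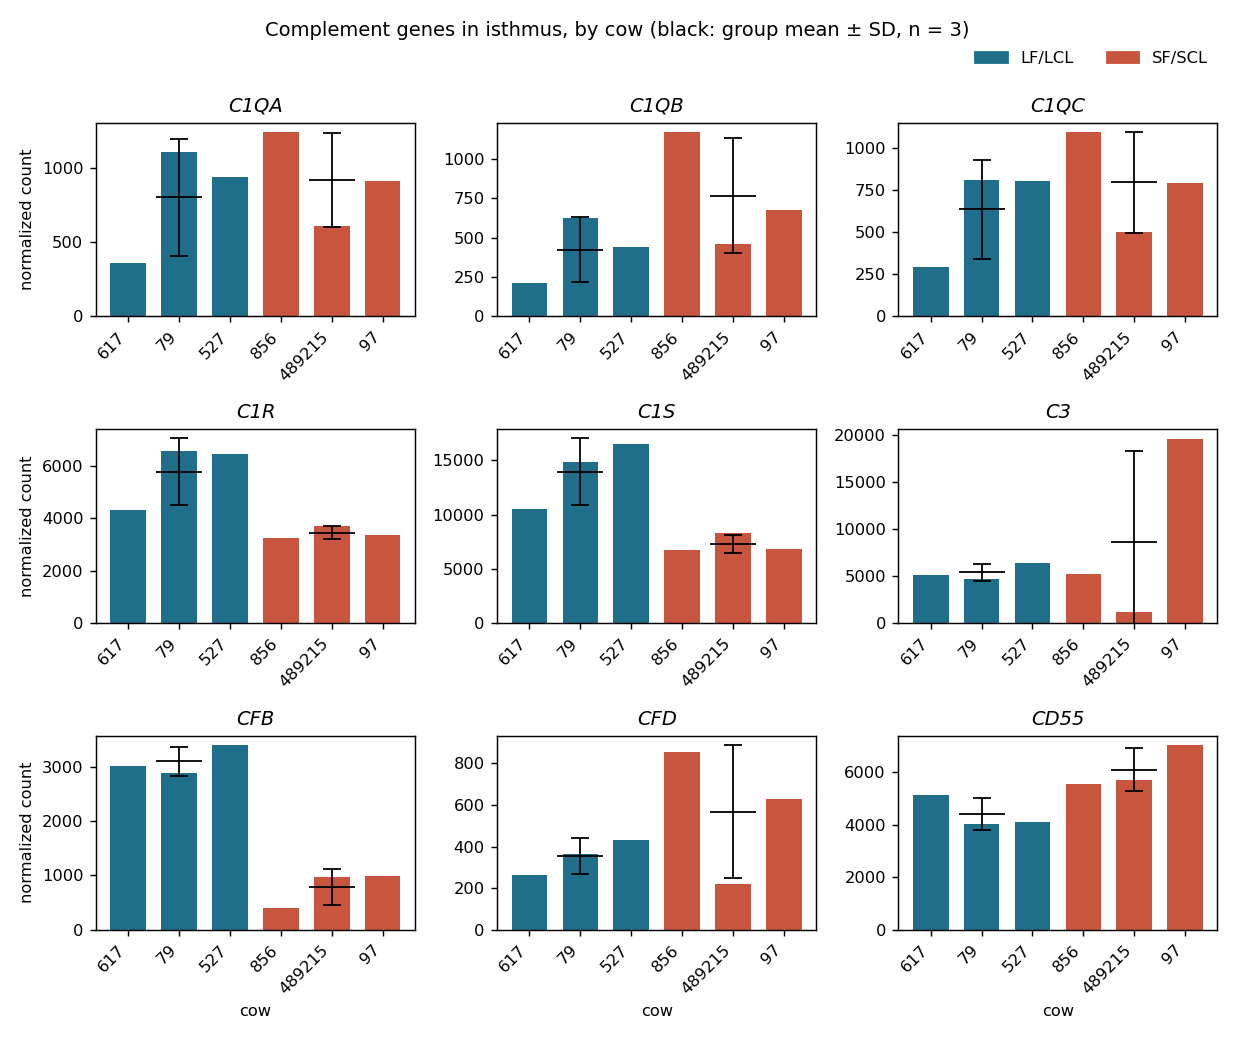
Normalized counts (y axis, from 0) of the 9 complement genes in the isthmus of each cow (x axis), with LF/LCL cows in blue, SF/SCL cows in red, and the group mean ± SD (n = 3) in black, the lower SD bar of C3 in SF/SCL running below 0 and out of view. CFB, C1R and C1S are taller in all 3 LF/LCL cows, CD55 in all 3 SF/SCL cows, and C3 ranges from 1182 in cow 489215 to 19564 in cow 97.

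Of the recognition subunits, C1QA, C1QB and C1QC encode the chains that are assembled together into C1q. C1QA (ENSBTAG00000007153) had normalized counts of 358, 1112 and 941 in LF/LCL cows 617, 79 and 527, and of 1245, 610 and 911.5 in SF/SCL cows 856, 489215 and 97. C1QC (ENSBTAG00000011193) had 295, 811 and 804 in the LF/LCL cows and 1098, 501 and 795.5 in the SF/SCL cows, in the same order. C1QB (ENSBTAG00000011196) had 209, 623 and 440 in the LF/LCL cows and 1170, 457 and 673 in the SF/SCL cows. For all 3 chains the highest value was that of SF/SCL cow 856 and the lowest that of LF/LCL cow 617, and the groups overlapped. Within the LF/LCL group the highest cow exceeded the lowest 3.11-fold for C1QA, 2.98-fold for C1QB and 2.75-fold for C1QC. The log2 fold change was 0.29 (SE 0.49) for C1QA, 0.39 (SE 0.49) for C1QC and 0.88 (SE 0.51) for C1QB. In this order the limma p-values were 0.570, 0.450 and 0.131 before adjustment and 0.908, 0.885 and 0.725 after it. Without LF/LCL cow 617 the log2 fold changes of C1QA and C1QC turned to -0.21 and -0.089 and that of C1QB dropped to 0.44. Without cow 489215 they rose to 0.56 for C1QA and 0.69 for C1QC (limma adjusted p of 0.449 and 0.331). C1QB then reached 1.20 with non-overlapping groups (limma adjusted p of 0.127).

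The chains of C1q did not keep a constant ratio to each other. The ratio of C1QA to C1QB, in which the size factor of the library cancels, was 1.71, 1.79 and 2.14 in LF/LCL cows 617, 79 and 527 and 1.06, 1.34 and 1.35 in SF/SCL cows 856, 489215 and 97. It was higher in every LF/LCL cow, with means of 1.88 and 1.25 (exact permutation test, two-sided, p = 0.1, the smallest p-value that 3 against 3 cows allow, and 0.2 after Benjamini-Hochberg adjustment over 6 ratios). The ratio of C1QB to C1QC was accordingly lower in LF/LCL, from 0.548 to 0.769 against 0.846 to 1.07 in SF/SCL (exact permutation test, p = 0.1). The ratio of C1QA to C1QC differed little, from 1.17 to 1.37 in LF/LCL and from 1.13 to 1.22 in SF/SCL (exact permutation test, p = 0.3). These ratios were looked at with the values already known. They compare cows and not the abundance of the transcripts, since gene length was not taken into account.

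**Figure D2:**
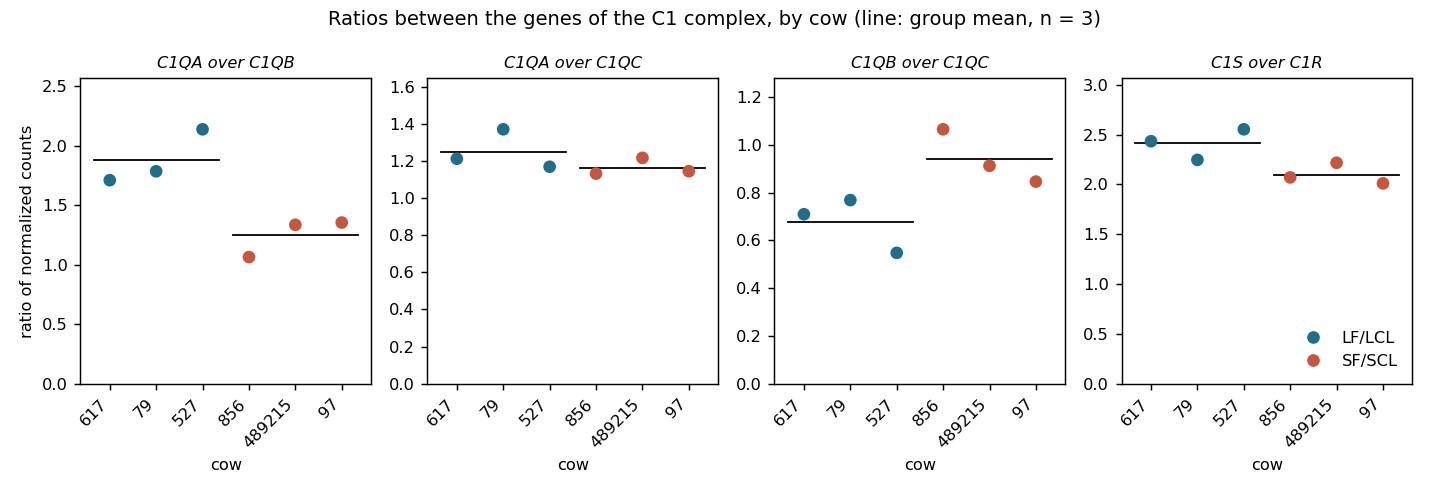
Ratio of normalized counts (y axis, from 0) between genes of the C1 complex in each cow (x axis), LF/LCL in blue and SF/SCL in red, with a line at each group mean (n = 3). C1QA over C1QB lies between 1.71 and 2.14 in LF/LCL and between 1.06 and 1.35 in SF/SCL, C1QA over C1QC overlaps, and C1S over C1R is at 2.25 or above in LF/LCL and at 2.22 or below in SF/SCL.

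The profile of log2 values over the 6 cows, centred on the gene's mean, was compared with that of 13988 other genes by Euclidean distance, as a description. C1QA and C1QC were each other's nearest genes, at a distance of 0.223, where the median distance of C1QA to a gene was 1.82. Next to C1QA came SSLP1 (0.363) and LY86 (0.410), and next to C1QC came LY86 (0.373) and ALOX5AP (0.397). LY86 encodes a secreted protein of myeloid cells and ALOX5AP takes part in leukotriene synthesis in leukocytes. The group means of SSLP1, LY86 and ALOX5AP were low, at 20.4 to 62.45 normalized counts. C1QB was farther from its partners, with C1QC as the 6th and C1QA as the 10th nearest gene, and SH2D7, LRRIQ3 and HERC5 nearest, at 0.582 to 0.669. The group means of SH2D7 and LRRIQ3 were 10.6 to 24.7 normalized counts, and those of HERC5 303 and 602. In the RefSeq gene table of the Tharparkar assembly NIAB-ARS_B.indTharparkar_mat_pri_1.0, another assembly than that of the counts, the genes of the 3 chains stood in a row, interrupted only by 1 unnamed gene between C1QC and C1QB.

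Macrophage markers are given beside C1q because these cells are its main source. Of 13 markers, 12 had a row and passed the filters, and their median log2 fold change was -0.04 (0.24 without cow 489215). For 0 of them was the limma p-value before adjustment under 0.05 (8.66% of all genes tested). The summed macrophage markers ran from 5755 to 8961 normalized counts in LF/LCL and from 7293 to 9041 in SF/SCL, and LF/LCL cow 617, lowest for C1q, was also lowest here. CTSS was the largest part of this sum in every cow, with 3684 to 4288 in LF/LCL and 4640 to 5082 in SF/SCL. CD163, a scavenger receptor of resident macrophages, had 44.0, 384 and 297 normalized counts in cows 617, 79 and 527 and 224, 21.3 and 207 in cows 856, 489215 and 97. The ratio of C1QA to CD163 was thus 28.6 in cow 489215, where the remaining cows had 2.90 to 8.14. CD163 did not stand for the whole list. CD68, CSF1R, MSR1 and TYROBP were also lowest in cow 489215. AIF1, CD14, CTSS, FOLR2, LYVE1 and MS4A7 lay there within the range of the other cows, and FCER1G was highest there. The part of macrophage number in the C1q values was not tested.

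The proteases of C1 were the members with the most even values within the SF/SCL group. C1S (ENSBTAG00000004840), which cleaves C4 and C2, had normalized counts of 10505, 14810.5 and 16479 in LF/LCL cows 617, 79 and 527 and of 6759, 8262 and 6790 in SF/SCL cows 856, 489215 and 97. All LF/LCL cows lay above all SF/SCL cows, with means of 13932 ± 3082 and 7270 ± 859 (SD, n = 3 each), a 1.92-fold difference. The log2 fold change was -0.92 (SE 0.23, limma adjusted p of 0.391), and -1.01 without cow 489215 (SE 0.19, limma adjusted p of 0.0167). C1R (ENSBTAG00000008612), which activates C1s, had 4315, 6592 and 6453 in the LF/LCL cows and 3264, 3725 and 3376 in the SF/SCL cows. Here too the groups did not overlap, with means of 5787 ± 1276 and 3455 ± 241 (SD, n = 3 each) and a log2 fold change of -0.72 (SE 0.22, limma adjusted p of 0.433). Without cow 489215 the log2 fold change of C1R was -0.78 (SE 0.19, limma adjusted p of 0.0376).

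The size of the change was close in both proteases. The ratio of C1S to C1R was 2.43, 2.25 and 2.55 in LF/LCL cows 617, 79 and 527 and 2.07, 2.22 and 2.01 in SF/SCL cows 856, 489215 and 97. It was higher in every LF/LCL cow, by a margin of 2.25 against 2.22 between the closest cows. The exact permutation test gave p = 0.1, the smallest possible, and 0.2 after Benjamini-Hochberg adjustment over 6 ratios. C1R and C1S are next to each other in the RefSeq table, and their profiles lay 0.295 apart. The genes nearest to C1R in profile were COL16A1, LSP1 and TGFB3, and those nearest to C1S were LTBP1, COL16A1 and TGFB3, all at distances of 0.194 to 0.226. COL16A1 is a fibril-associated collagen, TGFB3 a growth factor of stroma, and LTBP1 binds latent transforming growth factor beta in the matrix.

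Fibroblast markers moved with C1R and C1S. All 11 fibroblast markers tested were lower in SF/SCL, with a median log2 fold change of -1.002. The limma p-value before adjustment was under 0.05 for 8 of them (8.66% of all genes tested), and 7 did not overlap between the groups (18.1% of all genes). Without cow 489215 limma called 10 of the 11 after adjustment, where it called 18.2% of all genes. Smooth muscle markers had the same sign, all 8 being below 0 with a median log2 fold change of -0.54. Of these 8, limma called 0 after adjustment with all cows, as it called 0% of all genes. Without cow 489215 it called 7 of the 8, where it called 18.2% of all genes, with a median then of -1.05. The summed fibroblast markers were 416179 to 531371 normalized counts in LF/LCL and 208703 to 310255 in SF/SCL. The summed smooth muscle markers overlapped, with 784979 to 904542 in LF/LCL and 356885 to 1265710 in SF/SCL. PDGFRA, a growth factor receptor that marks fibroblasts, overlapped, with 5927, 8402 and 9272 in the LF/LCL cows and 3957, 6353 and 3093 in the SF/SCL cows. The part of fibroblast or muscle content in the C1R and C1S differences was not tested.

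C3 (ENSBTAG00000017280), on which all pathways converge, had the widest range of the members. Its normalized counts were 5079, 4687 and 6401 in LF/LCL cows 617, 79 and 527 and 5237, 1182 and 19564 in SF/SCL cows 856, 489215 and 97. The LF/LCL cows and cow 856 were close together, whereas the highest and the lowest value of all cows both fell in the SF/SCL group, 16.6-fold apart. Of all genes tested, 2.46% had a wider range over the 6 cows on the log2 scale. The means were 5389 ± 898 in LF/LCL and 8661 ± 9657 in SF/SCL (SD, n = 3 each), so that the mean was higher in SF/SCL while the log2 fold change was -0.11 (SE 0.93, limma adjusted p of 0.981). Without cow 489215 it was 0.92 (limma adjusted p of 0.250), and in edgeR and DESeq2, which compare means of reads, it was 0.67 to 0.69. Without cow 97, the highest, it was -1.10. No direction can therefore be given for C3. The genes nearest to C3 in profile, CA12, GPRIN1 and CATSPER3, lay at 0.789 to 0.896 from it, and their group means were 5.37 to 18.2 normalized counts.

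CFB (ENSBTAG00000046158), the serine protease of the alternative C3 convertase, showed the largest difference between the groups among the members. It had 3027, 2895 and 3411 normalized counts in LF/LCL cows 617, 79 and 527 and 401, 969 and 989.5 in SF/SCL cows 856, 489215 and 97. The LF/LCL cows were within 1.18-fold of each other, and the lowest of them was above the highest SF/SCL cow. The means were 3111 ± 268 and 787 ± 334 (SD, n = 3 each), a 3.96-fold difference. The log2 fold change was -2.09 (SE 0.37, limma adjusted p of 0.351), and no gene tested had a smaller adjusted p-value, although C7 and others shared it. It was -2.30 without cow 489215 (SE 0.35, limma adjusted p of 0.00900) and -1.99 in DESeq2 (SE 0.40, DESeq2 adjusted p of 0.000230).

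As C3 and CFB form the alternative convertase together, their values were set side by side in each cow. The ratio of C3 to CFB was 1.68, 1.62 and 1.88 in LF/LCL cows 617, 79 and 527. In the SF/SCL group it was 13.1 in cow 856, 1.22 in cow 489215 and 19.8 in cow 97. The SF/SCL cows thus held both the highest ratios and the lowest (exact permutation test, p = 0.4). The gene nearest to CFB in profile was ERN2, a sensor of unfolded proteins found in mucosal epithelium, at a distance of 0.431 where the median was 2.95, with means of 2181 in LF/LCL and 693 in SF/SCL. Next came KCNJ12 and PAQR5, at 0.655 and 0.663.

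CFB and C3 can be made by epithelium and by stroma. The sum of epithelial markers was opposite to CFB. All 11 fibroblast markers had the sign of CFB, with a median log2 fold change of -1.002. Of 9 secretory and general epithelium markers tested, 4 had a limma p-value under 0.05 before adjustment (8.66% of all genes tested). All 4 were higher in SF/SCL (background 4.19%), and the median log2 fold change of the 9 was 0.66. The transcription factor ELF3 and the tight junction gene CLDN4 had the sign of CFB, at -0.54 and -0.07, and at -1.09 and -0.88 without cow 489215. The summed secretory and general epithelium markers without OVGP1 were 30204 to 46865 normalized counts in LF/LCL and 49784 to 73525 in SF/SCL. EPCAM, an epithelial adhesion molecule, had 12286, 9925 and 8530 in the LF/LCL cows and 15871, 20313 and 18854 in the SF/SCL cows. OVGP1, the oviductal glycoprotein, did not pass the filters, with 271794 and 325158 in cows 856 and 97, 730 in cow 489215 and 287 to 1950 in the LF/LCL cows. The part of epithelial or stromal content or state in the CFB and C3 values was not tested.

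CFD (ENSBTAG00000048122), the protease that cleaves factor B, had 261, 364 and 433 normalized counts in LF/LCL cows 617, 79 and 527 and 855, 221 and 626 in SF/SCL cows 856, 489215 and 97. Cows 856 and 97 were above all LF/LCL cows and cow 489215 was below them. The log2 fold change was 0.51 (SE 0.53, limma adjusted p of 0.864), and 1.08 without cow 489215 (SE 0.25, limma adjusted p of 0.0316). Without cow 856, the highest, it was 0.11 (SE 0.52), and without LF/LCL cow 617 it was 0.31, so the size of the difference rested on single cows. CFD is known as an adipocyte product, and the fat cell gene ADIPOQ was at 2.17 to 15.8 normalized counts in the 6 libraries and lowest in cows 97 and 856, which were highest for CFD. Of 7 adipocyte markers 4 had a row, and PLIN4 alone made up nearly all of their sum, with 1627, 1487 and 2232 in LF/LCL and 886, 395 and 1056 in SF/SCL. FABP4, a fatty acid carrier of fat cells and other cells, was at 59.9 in cow 489215 and at 1.76 to 13.1 in the others. CIDEC, another fat cell gene, was at 2.28 in cow 856, 1.08 in cow 97 and 0 in the others. With 0.76 to 1.33 normalized counts per read, CIDEC and the lowest ADIPOQ values rested on few reads. The part of fat cells in the CFD values was not tested. The genes nearest to CFD in profile were FAM43A, CTSO and PLAU, at distances of 0.297 to 0.349.

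Of the membrane regulators, CD55 (ENSBTAG00000006984), or decay-accelerating factor, dissociates the C3 convertases on the cell's own surface. It had 5119, 4021 and 4119 normalized counts in LF/LCL cows 617, 79 and 527 and 5569, 5698 and 7043 in SF/SCL cows 856, 489215 and 97. The groups did not overlap, with cow 617 close below cow 856. The means were 4420 ± 608 and 6104 ± 816 (SD, n = 3 each), a 1.38-fold difference, and the log2 fold change was 0.47 (SE 0.19, limma adjusted p of 0.562). Leaving out cow 489215 changed it little, to 0.51 (limma adjusted p of 0.0626). CD55 had the narrowest range of the members, 1.75-fold from the lowest to the highest cow, and its nearest genes in profile were MAP3K5, FAAH and NMNAT3, at 0.141 to 0.175. CD59, which blocks the membrane attack complex and is no member, had a log2 fold change of 0.02 (SE 0.25) and overlapping groups, and of -0.17 without cow 489215.

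**Figure D3:**
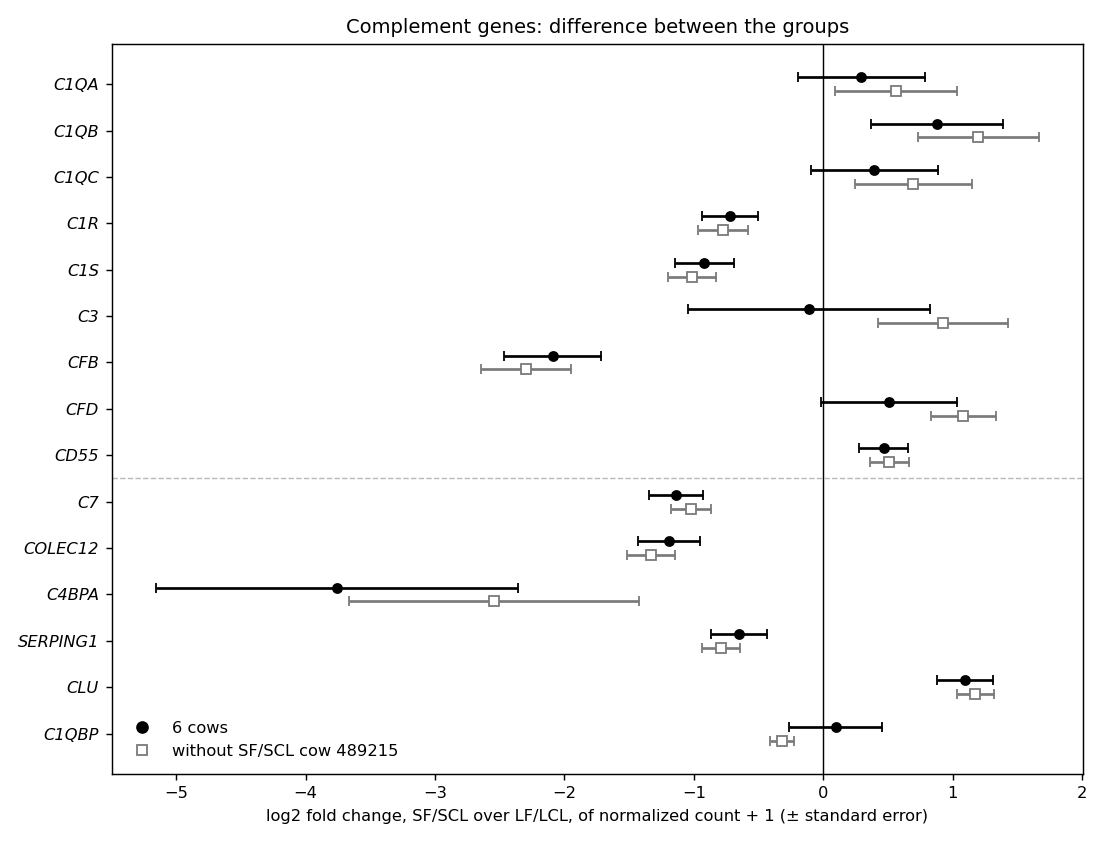
Log2 fold change of SF/SCL over LF/LCL (x axis, ± standard error from limma) of the 9 members, above the dashed line, and of 6 other complement genes below it, with 6 cows (black circles) and without cow 489215 (open squares). CFB lies farthest to the left of the members at -2.09, and C3 moves from -0.11 to 0.92 when cow 489215 is left out.

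To place the members in their pathway, 39 other complement genes were listed, of which 31 had a row and 24 passed the filters. Of these 24, 14 had a log2 fold change below 0 and 10 above 0, with a median of -0.19, against -0.02 over all genes tested. After adjustment 0 of them passed the threshold in limma, where 0% of all genes did. Before adjustment 5 of the 24 had a limma p-value under 0.05 (8.66% of all genes tested), namely C7, COLEC12, C4BPA and SERPING1 with more in LF/LCL, and CLU with more in SF/SCL. All of these but C4BPA had groups without overlap. Without cow 489215 limma called 6 of the 25 genes then tested, where it called 18.2% of all genes, 5 on the LF/LCL side (C7, COLEC12, SERPING1, C5 and CD93) and 1 on the SF/SCL side (CLU). DESeq2 called 3 of the list, where it called 2.76% of all genes, C7, COLEC12 and CLU. C7, COLEC12 and CLU stand, as C1S does, among the genes the study selected on these libraries.

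The inhibitor of C1r and C1s had the direction of its targets. SERPING1 had normalized counts of 8002, 10920 and 10272 in LF/LCL cows 617, 79 and 527 and of 5824, 7485 and 5320 in SF/SCL cows 856, 489215 and 97. The groups did not overlap, and the log2 fold change was -0.65 (SE 0.22, limma adjusted p of 0.469), -0.79 without cow 489215 (limma adjusted p of 0.0164). Of the other genes of the classical and lectin pathways, C2, which stands next to CFB in the RefSeq table, had a log2 fold change of -1.25 (SE 0.68), and of -0.48 (SE 0.30) without cow 489215, with 51.9 normalized counts in cow 489215 and 217 to 521 in the others. C1QBP, a largely mitochondrial protein that binds C1q, was at 4504 in cow 489215 and at 1828 to 2445 in the others. COLEC12, a membrane collectin, had 1862, 1876 and 2302 in the LF/LCL cows and 965, 1064 and 658 in the SF/SCL cows, a log2 fold change of -1.19 (SE 0.24) and of -1.33 without cow 489215.

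Of the soluble regulators, C4BPA, a chain of the C4b-binding protein, had 95.3, 242 and 207 in the LF/LCL cows and 6.08, 1.33 and 118 in cows 856, 489215 and 97, so that the groups overlapped through cow 97. Its log2 fold change was -3.76 (SE 1.40), and the value in cow 489215 was that of a single read. It was -2.55 without that cow, -2.13 in edgeR and -2.11 in DESeq2, and in none of these was the unadjusted p-value under 0.05.

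Of the terminal pathway, C7, a component of the membrane attack complex, had 4254, 4021 and 5432 normalized counts in LF/LCL cows 617, 79 and 527 and 2437, 1748 and 2044 in SF/SCL cows 856, 489215 and 97. The groups did not overlap and the log2 fold change was -1.14 (SE 0.21, limma adjusted p of 0.351), and -1.02 without cow 489215. CLU, or clusterin, a chaperone that also blocks assembly of the attack complex, went the other way, with 15011, 18158.5 and 17497 in the LF/LCL cows and 43374, 32188 and 33341 in the SF/SCL cows. Its log2 fold change was 1.10 (SE 0.21, limma adjusted p of 0.367), and 1.18 without cow 489215. Some components made in the liver were at the limit of detection, and C8A, VTN and C4BPB had 1 read each over the 6 libraries. At this depth a count of 0 in a library leaves room for up to 3 reads, for counting error only.

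**Figure D4:**
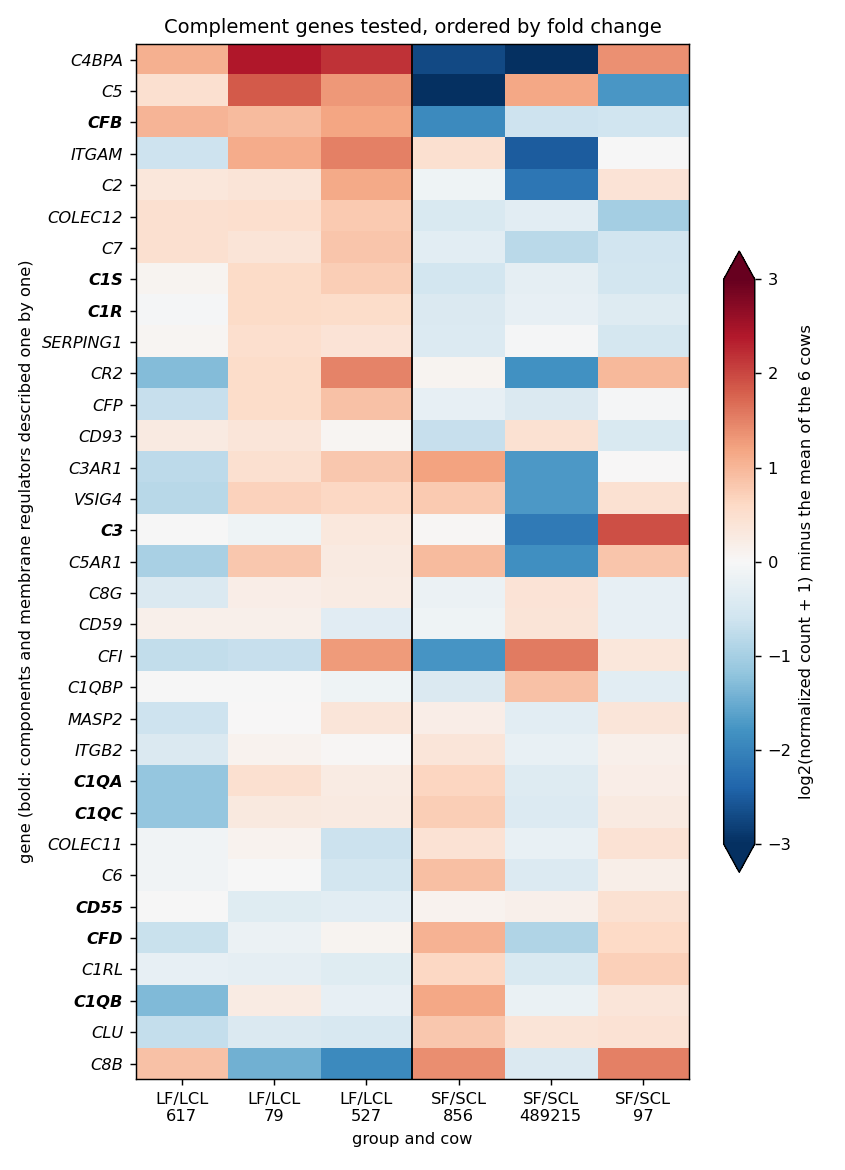
Log2(normalized count + 1) minus the mean of the 6 cows (colour, blue lower and red higher, limited to 3 in either direction) for the 9 members in bold and the 24 other complement genes tested (rows, ordered by log2 fold change) in each cow (columns, LF/LCL left of the line). The upper rows, with CFB, COLEC12, C7, C1S and C1R, are higher in the LF/LCL cows, and cow 489215 stands out as low for C3, C2 and ITGAM.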

How the data were processed

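Total RNA of 6 isthmus samples was sequenced as paired ends after polyA selection. Per the methods of the study, the authors cleaned reads with seqyClean, mapped them by TopHat2 2.0.8 and Bowtie2 2.1.0 to the masked Bos taurus assembly UMD3.1, counted reads per Ensembl gene by HTSeq 0.5.4p2 and divided the counts by DESeq 1.12.1 size factors. The deposited signal values are these normalized counts, which are per gene and not per gene length. Whether counting used strand is not given in the sources used here. Dividing by the smallest step of a library gave whole reads for 100% of 147696 values (tolerance 0.0006), and these recovered reads entered the count tests.

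Groups came from the sample titles. Genes whose mean exceeded 5 and their SD were tested on log2(value + 1) with limma 3.58.1 (lmFit, eBayes with trend and robust) in R 4.3.3, with Benjamini-Hochberg adjustment at 0.05. Alternatives were other pseudocounts, filters and scaling, edgeR 4.0.16 and DESeq2 1.42.0 on recovered reads, and leaving out each cow. The fits were tested on simulated data. Ratios used exact permutation tests in scipy 1.17.1. Plots used matplotlib 3.10.9 and tables pandas 2.3.3.

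Members and lists were chosen with earlier results of these data known. Named are all members, the other complement genes with groups that do not overlap, with an unadjusted p-value under 0.05 or among the 5 with the highest mean, and the 3 tested genes nearest to each member in profile. C2, C5, CD59, CD93, C8A, VTN, C4BPB the genes named for a single high or low cow and the marker genes named one by one were added after their values were seen.

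The marker lists were macrophage, other leukocyte, fibroblast, secretory and general epithelium, ciliated epithelium, smooth muscle, endothelium, mesothelium, adipocyte, and hepatocyte and plasma protein genes. A further complement gene is not reported here.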

Additional observations from a re-analysis of the deposited data

How the results depend on the processing

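Over 14 alternatives, the 15 named complement genes gave 207 log2 fold changes, of which 186 kept their direction and stayed short of the adjusted threshold, 13 kept their direction and passed it, and 8 changed direction. The number of genes past the threshold, 0 in limma, was 416 with DESeq2, among them 2 members and 3 other complement genes, and the cause was not tested. Leaving out each cow gave 0 to 2827 genes, 0 to 4 members and 0 to 6 other complement genes, and only the omission of SF/SCL cow 489215 gave any call. The number of members with an unadjusted p-value under 0.05 ran from 2, without LF/LCL cow 79 or 527, to 6, without cow 489215. C3, at -0.11, was 0.67 with edgeR and TMM, 0.69 with edgeR and DESeq2 size factors, 0.69 with DESeq2, and -1.10 to 0.92 when each cow was left out, with 0.02 without LF/LCL cow 527 and 0.92 without cow 489215. Leaving out each cow moved C1QA from -0.21 to 0.61 and C1QC from -0.089 to 0.69, both lowest without LF/LCL cow 617. It moved C1QBP from -0.32, without cow 489215, to 0.33. The cause of these reversals was not tested. CFB, C1R, C1S, CFD, C1QB and CD55 kept their direction under all 14. C4BPA could be fitted in 11, since fits without a cow applied the filters anew. With 3 cows a group and a single library each, p-values rest on the spread between these cows. No paired analysis was possible because the groups share no replicate number.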

Other observations

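Several other complement genes were high in a single cow or in cows of both groups. MASP1, a protease of the lectin pathway, had 239.5 normalized counts in SF/SCL cow 97 and 17.3 to 64.8 in the others, and CSMD1, a membrane inhibitor of complement, had 600 in cow 97, 147 in LF/LCL cow 79 and 11.5 to 39.5 in the others. CFI, a serine protease that cleaves C3b, was at 1495 in LF/LCL cow 527 and 1807 in SF/SCL cow 489215, against 179 to 776 in the other cows. MASP1 and CSMD1 did not pass the filters.

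Complement receptors of myeloid cells were lowest in cow 489215. C5AR1 had 24.0 normalized counts there and 44.0 to 169 in the others, C3AR1 had 33.3 against 64.9 to 262, ITGAM had 10.7 against 41.9 to 188, and VSIG4, a macrophage receptor for C3b, had 18.6 against 35.6 to 111. ITGB2, the integrin chain that pairs with ITGAM, did not follow, with 290 in cow 489215 and 252 to 434 in the others. LF/LCL cow 617 was the second lowest for all 4 receptors and the lowest for ITGB2.

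Among the remaining marker lists, the limma p-value before adjustment was under 0.05 for 3 of 10 ciliated epithelium genes, higher in SF/SCL, and for 1 of 8 smooth muscle and 1 of 8 endothelium genes, higher in LF/LCL, against 8.66% of all genes tested. Without cow 489215 limma called 8 of 10, 7 of 8 and 3 of 8 of these genes after adjustment, in the same directions, where it called 18.2% of all genes. The p-value was under 0.05 for 0 of 13 other leukocyte genes and 0 of 5 hepatocyte and plasma protein genes, and for PLIN4, 1 of 2 adipocyte genes tested. Of 7 mesothelium genes, 6 did not pass the filters. The gene tested, BNC1, was higher in LF/LCL, with 68.0 to 97.6 normalized counts against 16.0 to 23.6 in SF/SCL, whereas MSLN, not tested, was at 808 to 1871 in LF/LCL and 2299 to 18098 in SF/SCL. WT1, not tested, was at 8611 and 7984 in cows 856 and 97 and at 1037 to 1302 in the others. The sum of the 7 was 2940 to 3401 in LF/LCL and 3529 to 28215 in SF/SCL, with MSLN and WT1 its largest parts in every cow.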
